A study of Mus musculus with 8 samples.

Results

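The mitochondrial ribosomal protein genes were followed across islets of 3 mouse genotypes. Members were taken by symbol, *Mrpl* or *Mrps* followed by a digit and without pseudogene symbols, with at least 1 RPKM (reads scaled to transcript length and library depth) in at least 2 of the 8 libraries. Of 24123 genes in the table, 78 symbols fitted and 77 passed the level filter, 48 of the large subunit and 29 of the small subunit by symbol. *Mrpl53* was listed at 0 in all libraries. The rule used no difference between genotypes. The same filter kept 77 of 78 cytosolic ribosomal protein genes, the family used for comparison, and 12594 genes in all.

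Mitochondria carry their own ribosome, which translates the few respiratory chain and ATP synthase subunits that mitochondrial DNA encodes. Its RNAs come from mitochondrial DNA, whereas all of its proteins are encoded in the nucleus, made by cytosolic ribosomes and imported. In the β cell, oxidative phosphorylation couples glucose metabolism to ATP production and thereby to insulin secretion.

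Islets came from adult male littermates fed regular chow and were flash frozen after isolation. The Control group had the genotype IRS2+/+; CDK4 wt/wt (3 libraries, replicates 1, 3 and 4), the Diabetic group IRS2-/-; CDK4 wt/wt (3 libraries, replicates 1, 2 and 3) and the Rescue group IRS2-/-; CDK4 R24C/R24C (2 libraries, replicates 1 and 2). *Irs2* encodes an adaptor of the insulin and IGF1 receptors and was deleted in the whole animal, and R24C is a knocked-in CDK4 form that INK4 inhibitors do not bind. No group had R24C with intact *Irs2*, and the lines were not extensively backcrossed. The labels do not say whether each library came from its own mouse, so p-values measure only the spread between libraries. Depth was 10.29 to 14.316 M reads in genes per library, and a member had 19 reads at the least and 256 at the median in a library. All 9 β cell markers on the list used here were tested, with a summed level of 136000 to 224000 RPKM per library that includes the insulin genes. By limma, as defined below, *Slc2a2* and *Ucn3* were lower in Diabetic than Control, *Slc2a2* and *G6pc2* in Rescue than Control and *Iapp* in Rescue than Diabetic, and their part in the members' values was not tested. Whole islets also hold other cells, and a lower share of a cell type cannot be told apart from less RNA per cell.

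The members lie on 17 chromosomes, with 11 on chromosome 11 and 8 on chromosome 17. Promoters are shown because the members are separate genes measured together, and their upstream letters are a feature that the rule did not use. RefSeq promoters (GRCm38.p6) were matched by symbol for 68 of the 77 members. Each window of 250 bases before to 50 after the start was searched on both strands for an ETS family motif (CCGGAAG, the core bound by GABP), an NRF1 motif (GCATGCGC) and a YY1 motif (AAGATGGC). Only these exact letters counted as a match, so sites that vary in a letter were missed and absence of a match is not absence of a site. ETS and YY1 motifs can share letters, and of 27025 genes with a promoter 1 held overlapping matches of different motifs, but no member did. In the sequences below, 150 bases before the start are written 5′ to 3′ on the gene's strand, with motif matches on either strand in capitals. *Mrpl22* holds an ETS and an NRF1 match, *Mrpl52* and *Mrps27* hold an ETS match in these 150 bases, and *Mrpl45* holds none, and all 4 were chosen after their matches were seen. Past the start, and so not printed, *Mrpl52* holds another ETS match and *Mrps27* a YY1 match.
Mrpl22 (chr11:58171514-58171663, plus strand): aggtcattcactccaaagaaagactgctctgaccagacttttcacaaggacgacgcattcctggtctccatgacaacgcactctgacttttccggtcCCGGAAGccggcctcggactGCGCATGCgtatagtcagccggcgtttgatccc
Mrpl52 (chr14:54426759-54426908, plus strand): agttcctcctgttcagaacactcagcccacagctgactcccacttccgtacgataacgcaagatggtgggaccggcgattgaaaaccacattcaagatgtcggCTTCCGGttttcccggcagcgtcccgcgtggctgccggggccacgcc
Mrps27 (chr13:99344636-99344785, plus strand): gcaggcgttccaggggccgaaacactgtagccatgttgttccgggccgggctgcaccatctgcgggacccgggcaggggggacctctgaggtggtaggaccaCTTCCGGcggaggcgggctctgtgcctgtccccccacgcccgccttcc
Mrpl45 (chr11:97315566-97315715, plus strand): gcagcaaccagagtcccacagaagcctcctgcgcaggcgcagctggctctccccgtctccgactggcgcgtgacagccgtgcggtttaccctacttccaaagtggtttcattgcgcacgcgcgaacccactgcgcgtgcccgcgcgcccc

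The ETS motif was present in 25 of the 68 matched members (36.8%), against 9.93% of all 27025 genes with a promoter, 19.8% of the 10000 tested genes that matched and 41.1% of 56 matched cytosolic ribosomal protein genes. The NRF1 motif was present in 11.8% of members, 6.03% of matched tested genes and 5.36% of cytosolic ribosomal protein genes. The YY1 motif was present in 17.6%, 5.19% and 10.7% in the same order. At least 1 of the motifs was present in 54.4% of members and 28% of matched tested genes. These shares describe letters in a window and were not tested.

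Mean levels over the 8 libraries ran from 1.09 RPKM to 48.9 RPKM, with quartiles of 5.07 and 13.8 and a median of 8.72 RPKM. The median cytosolic ribosomal protein gene was at 151.1 RPKM and the median tested gene at 5.65 RPKM. The highest member was *Mrps21*, a small subunit protein, at 48.2, 41.99 and 48.3 RPKM in the Control libraries, 41.5, 46.4 and 46.9 in the Diabetic libraries and 70.3 and 47.3 in the Rescue libraries. Only Rescue 1 stood clear of the others for *Mrps21*, and no comparison was called for it (log2 difference 0.35 for Rescue minus Diabetic, adjusted p = 0.162, limma). *Mrps12*, whose product lies at the decoding centre and is the counterpart of the bacterial S12 protein, was second at 29.9, 30.5 and 22.2 RPKM in the Control libraries, 32.9, 33.2 and 32.1 in the Diabetic libraries and 39.2 and 32.4 in the Rescue libraries. The *Mrps12* values of Diabetic and Rescue overlapped, and all Diabetic values lay above all Control values, with a difference of 0.26 (SE 0.15, adjusted p = 0.331) by limma that was not called. *Mrpl54*, of the large subunit, followed at 25.4, 25.4 and 22.6 RPKM in the Control libraries, 28.2, 24.0 and 24.9 in the Diabetic libraries and 46.1 and 27.1 in the Rescue libraries. The lowest 3 were *Mrps10* (1.18 to 2.65 RPKM over the libraries), *Mrps25* (1.30 to 2.34 RPKM) and *Mrpl33* (0.584 to 1.85 RPKM). Within a member, the highest library exceeded the lowest by 1.17 to 3.88 times, with a median of 1.75, and the widest ratio was that of *Mrps6*.

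Summed over the 77 members, the level was 843.1, 775.4 and 748.8 RPKM in the Control libraries, 781.5, 682.3 and 719.1 RPKM in the Diabetic libraries and 1109 and 886.8 RPKM in the Rescue libraries. Both Rescue libraries were above all others, and the Diabetic and Control ranges overlapped. Of the 77 members, 54 had their highest value in Rescue 1 and 9 in Rescue 2, whereas 35 had their lowest value in Diabetic 2, 14 in Diabetic 3 and 10 in Control 4. Rescue 1 was above Rescue 2 in 60 members. By group means, Diabetic was lowest and Rescue highest in 55 members.

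The 77 cytosolic ribosomal protein genes had another order of libraries. Each gene was centred on its mean log2(RPKM + 1) over the 8 libraries, and the mean over a family's genes was taken in each library. This level was 0.06, −0.03 and −0.11 in Control, −0.04, −0.24 and −0.17 in Diabetic and 0.37 and 0.15 in Rescue for the mitochondrial family. For the cytosolic family it was −0.37, −0.49 and −0.42 in Control, 0.12, 0.02 and −0.13 in Diabetic and 0.86 and 0.41 in Rescue. The cytosolic family thus separated all 3 groups, and the mitochondrial family separated only Rescue from the others. The difference within a library, mitochondrial minus cytosolic, was 0.44, 0.46 and 0.31 in Control, −0.16, −0.26 and −0.03 in Diabetic and −0.49 and −0.26 in Rescue. Every Control library lay above every *Irs2*-deleted library in this difference, and the ranges of Diabetic and Rescue met. The summed cytosolic level was 12.4, 12.4 and 13.9 times the summed mitochondrial level in Control, 19.1, 20.9 and 17.8 times in Diabetic and 21.8 and 20.3 times in Rescue. Scaling a library does not move this ratio of sums. The difference between the families is given as a description and was not tested.

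**Figure D1:**
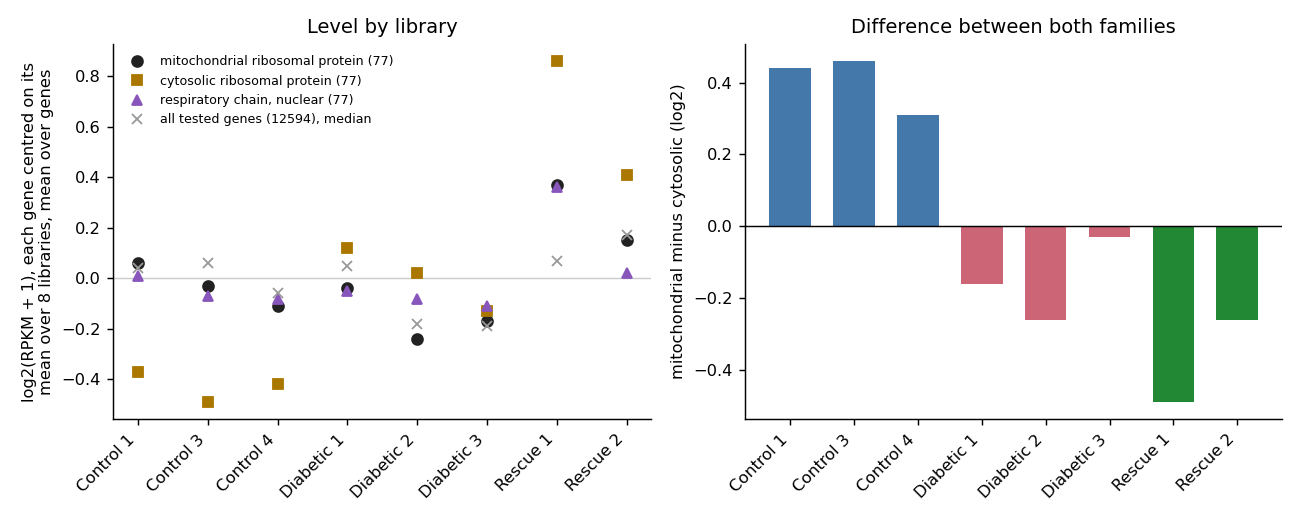
Left, mean of centred log2(RPKM + 1) values over each family's genes (median for all tested genes) by library, and right, the mitochondrial minus the cytosolic ribosomal protein level, with 1 bar per library coloured by genotype. The mitochondrial family is highest in Rescue 1 (0.37) and Rescue 2 (0.15), and the difference is above 0 in the 3 Control libraries only.

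Diabetic and Control islets, which differ in *Irs2*, were compared first. Males of the Diabetic genotype had raised blood glucose in the paper, so loss of *Irs2* and the metabolic state cannot be told apart. No member was called at an adjusted p below 0.05 (limma on log2(RPKM + 1), Benjamini-Hochberg adjustment over 12594 genes), when 1.53% of all tested genes were called higher and 2.44% lower. The lowest adjusted p was 0.0811, and 7 members (9.09%) had an unadjusted p below 0.05, all lower in Diabetic. Of all tested genes 23.3% had an unadjusted p below 0.05, 997 of them higher and 1941 lower. A voom fit on whole reads recovered from the RPKM steps also called none. Differences ran from −0.62 to 0.34 on the log2 scale, with 19 members above 0 and 58 below. Their median was −0.13, and that of all tested genes was −0.12. The 95% confidence interval of the difference lay within −1 and 1 for 73 of the 77 members. All Diabetic values lay above all Control values in 4 members and below in 15, against 10.2% and 21.5% of all tested genes. Among the cytosolic genes 6 were called higher and none lower, with a median of 0.43, and 54 had an unadjusted p below 0.05.

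The lowest of these differences was that of *Mrpl36*, a small protein of the large subunit. It was measured at 21.3, 18.5 and 26.1 RPKM in the Control libraries, 13.1, 13.4 and 15.04 in the Diabetic libraries and 25.97 and 18.8 in the Rescue libraries. The 3 Diabetic values were below all 5 other values, and the difference from Control was −0.62 (SE 0.17, adjusted p = 0.0811) by limma, which was not called. The exons of *Mrpl36* overlap those of *Ndufs6*, a complex I subunit gene, and whether counting used strand is not given in the sources used here, so reads of the 2 genes may be mixed. The highest difference was that of *Mrpl51*, at 7.06, 7.15 and 7.50 RPKM in the Control libraries, 9.71, 9.01 and 9.52 in the Diabetic libraries and 11.9 and 7.89 in the Rescue libraries. All Diabetic values exceeded all Control values, with a difference of 0.34 (SE 0.16, adjusted p = 0.235) by limma, also not called. *Mrpl36* and *Mrpl51* were picked for their place at the ends of the range.

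Rescue and Diabetic islets differ in the CDK4 allele on the same *Irs2*-deleted background. The paper reports raised blood glucose in males of the Diabetic genotype and control levels in the Rescue genotype. The allele and the metabolic state thus cannot be told apart here. In this comparison 26 of 77 members (33.8%) were called higher in Rescue and none lower, when 24.0% of all tested genes were called higher and 5.80% lower. The members' median difference was 0.43 and that of all tested genes was 0.24, and 70 of 77 members were above 0. Members are short, with a median exon length of 2533 bases. Of the 2830 tested genes no longer than that, 30.2% were called higher, with a median difference of 0.37, so the members' share was near that of other short genes. All Rescue values lay above all Diabetic values in 57 members and below in 1, against 42.0% and 12.9% of all tested genes. The cytosolic family had 54 genes called higher and none lower, with a median of 0.61, and the 77 nuclear-encoded respiratory chain genes had 10 called higher and 1 lower, with a median of 0.23.

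The 26 called members included 16 of 48 large subunit and 10 of 29 small subunit genes, or 33.3% and 34.5%. The large subunit genes were *Mrpl11*, *Mrpl12*, *Mrpl13*, *Mrpl15*, *Mrpl18*, *Mrpl19*, *Mrpl21*, *Mrpl22*, *Mrpl27*, *Mrpl28*, *Mrpl36*, *Mrpl40*, *Mrpl43*, *Mrpl45*, *Mrpl49* and *Mrpl52*. The small subunit genes by symbol were *Mrps5*, *Mrps7*, *Mrps9*, *Mrps15*, *Mrps16*, *Mrps18c*, *Mrps25*, *Mrps27*, *Mrps28* and *Mrps36*. Their differences ran from 0.44 (*Mrpl49*) to 0.85 (*Mrpl45*). The count depended on single libraries. It was 2 without Rescue 1 (2.60%, against 11.4% of all tested genes called higher in that fit), 2 without Diabetic 2 (2.60% against 14.6%) and 9 without Diabetic 3 (11.7% against 18.3%). It was 11 without Control 3 (14.3% against 19.4%) and 13 without Control 1 (16.9% against 20.1%). In each of these fits the members' share was below that of all tested genes, and it was above it without Rescue 2 (32 members, 41.6% against 20.6%). Of the members, *Mrpl45* and *Mrps36* were the 2 called without Rescue 1 and without Diabetic 2. Under median-of-ratios scaling 4 members were called higher (5.19%, against 16.9% of all tested genes) and 1 lower (*Mrpl1*). Under quantile normalization 1 was called higher (*Mrps36*, 1.30% against 14.3%) and 2 lower (*Mrpl1* and *Mrpl17*). Of the 12594 tested genes, 1674 were called lower under median-of-ratios scaling and 2365 under quantile normalization. The members' share called higher was thus above the background as deposited and below it under both scalings. Those scalings moved the median difference of all tested genes from 0.24 to 0.04 and −0.07, and the members' median to 0.21 and 0.14.

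**Figure D2:**
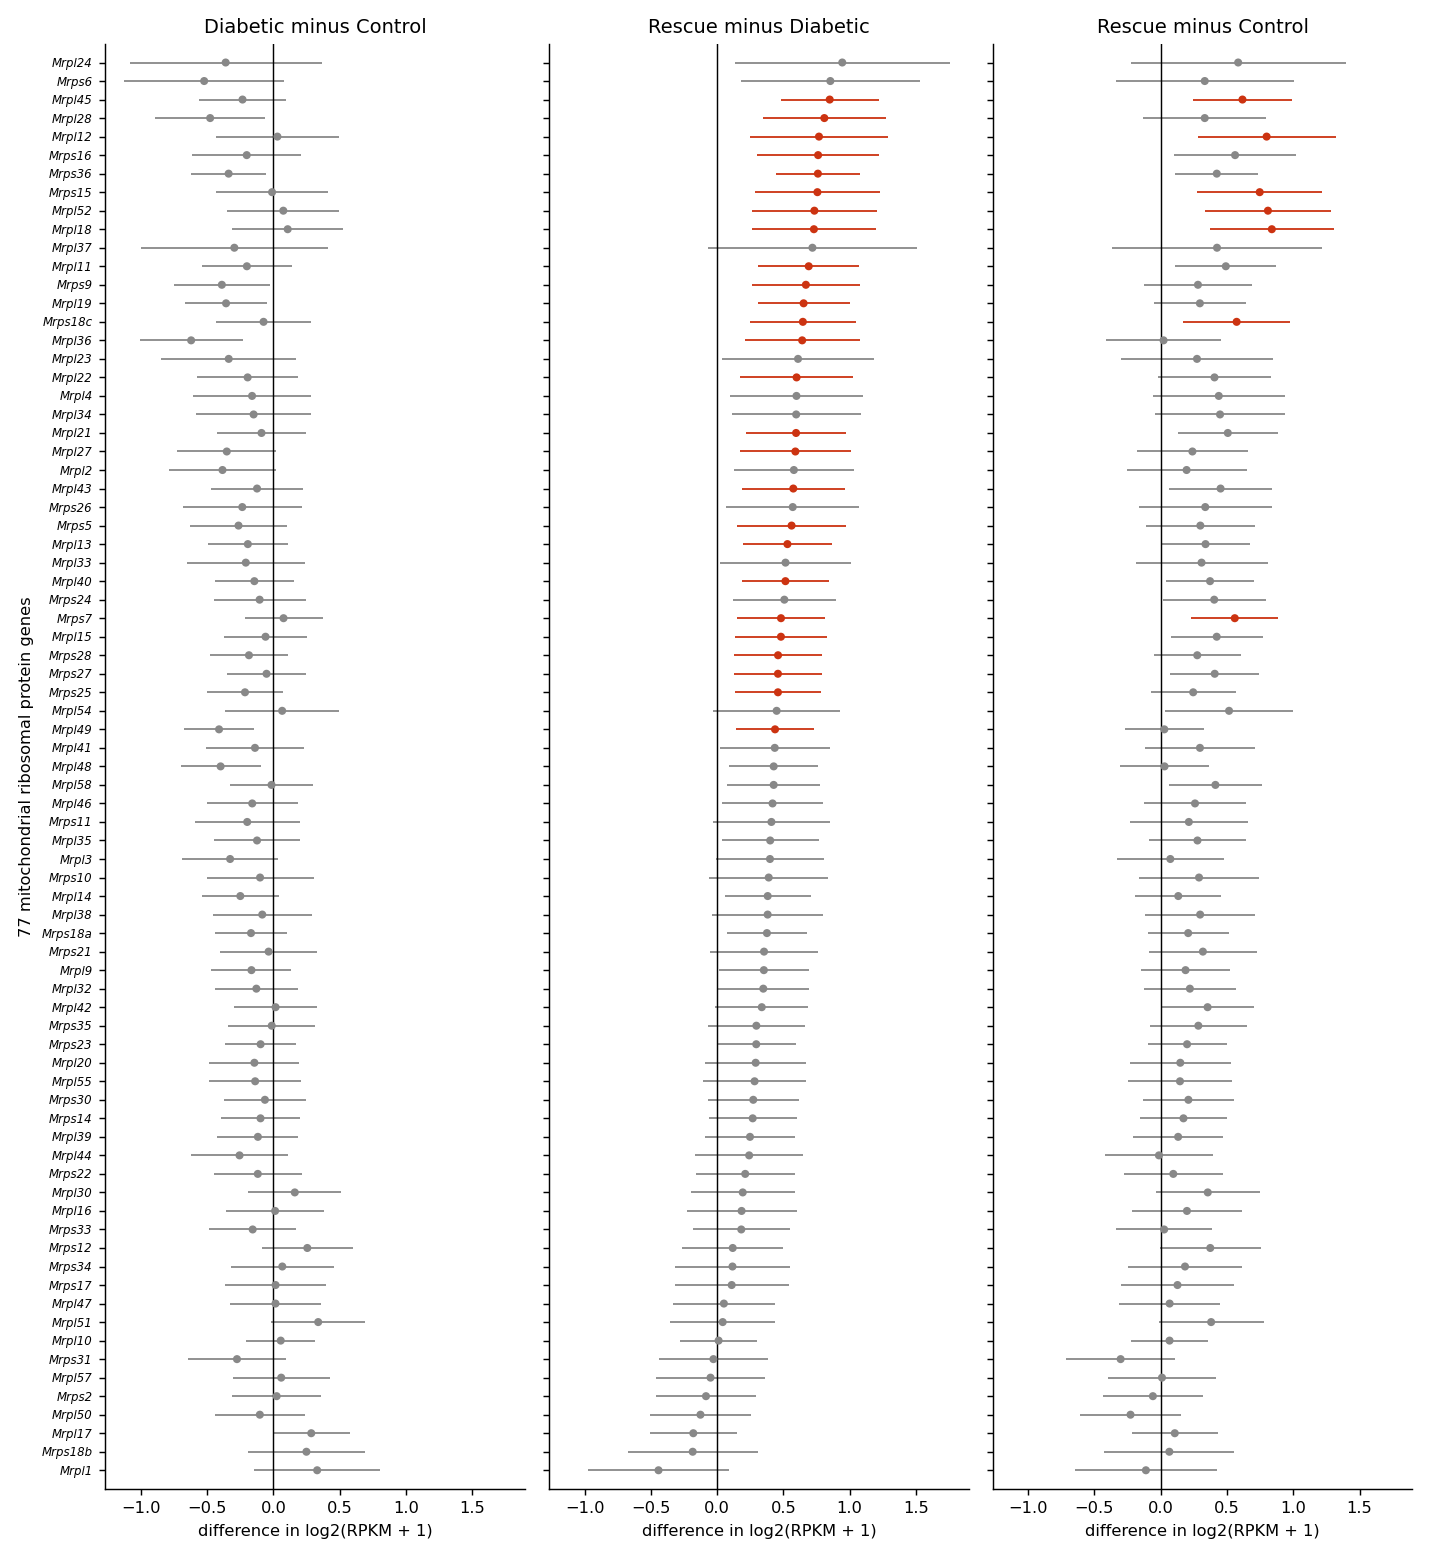
Difference in log2(RPKM + 1) for each of the 77 members in the 3 comparisons, ordered by Rescue minus Diabetic, with points for limma estimates, lines for 95% confidence intervals and red for an adjusted p below 0.05. Red marks 0 members in Diabetic minus Control, 26 in Rescue minus Diabetic and 7 in Rescue minus Control.

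The largest called difference was that of *Mrpl45* (chr11:97315716-97329920, plus strand, GRCm38), whose product sits by the peptide exit tunnel and holds the ribosome to the inner membrane. It was measured at 5.46, 5.58 and 5.82 RPKM in the Control libraries, 4.80, 4.48 and 4.62 in the Diabetic libraries and 10.8 and 7.71 in the Rescue libraries. The 3 groups did not overlap, with means of 5.62 ± 0.182, 4.63 ± 0.161 and 9.27 ± 2.20 RPKM (SD, n = 3, 3 and 2). The limma difference between Rescue and Diabetic was 0.85 (SE 0.16, adjusted p = 0.00662). It is the gene shown above without a match to the exact motif letters, which does not exclude a variant site. *Mrpl28* (chr17:26123500-26126613, plus strand), a large subunit gene, was at 20.7, 20.7 and 20.4 RPKM in the Control libraries, 13.6, 13.2 and 17.01 in the Diabetic libraries and 33.1 and 20.7 in the Rescue libraries. Diabetic was below both other groups, Rescue 2 fell among the Control values, and the difference between Rescue and Diabetic was 0.81 (SE 0.20, adjusted p = 0.0194) by limma.

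*Mrpl12* (chr11:120484613-120489065, plus strand) encodes a stalk protein of the large subunit that also binds the mitochondrial RNA polymerase. It was at 11.8, 9.97 and 10.5 RPKM in the Control libraries, 11.2, 9.46 and 12.6 in the Diabetic libraries and 25.6 and 14.7 in the Rescue libraries. Control and Diabetic overlapped, both Rescue values were higher, and Rescue 1 was far above Rescue 2. The difference was 0.77 (SE 0.23, adjusted p = 0.0356) for Rescue minus Diabetic and 0.80 (SE 0.23, adjusted p = 0.0357) for Rescue minus Control by limma.

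*Mrps16* (chr14:20389304-20393634, minus strand), of the small subunit, was at 6.04, 5.64 and 5.01 RPKM in the Control libraries, 5.49, 3.98 and 4.72 in the Diabetic libraries and 10.6 and 7.02 in the Rescue libraries. Both Rescue values were above the rest, and the difference between Rescue and Diabetic was 0.76 (SE 0.20, adjusted p = 0.0235) by limma. *Mrps36* (chr13:100735955-100744659, minus strand), named for the small subunit, encodes a protein since placed in the oxoglutarate dehydrogenase complex of the tricarboxylic acid cycle. It was at 8.004, 7.57 and 7.72 RPKM in the Control libraries, 6.20, 5.98 and 5.63 in the Diabetic libraries and 11.7 and 9.83 in the Rescue libraries. The groups did not overlap, Diabetic being lowest and Rescue highest, and the difference between Rescue and Diabetic was 0.76 (SE 0.14, adjusted p = 0.00534) by limma. Reads of *Mrps36* may be shared with 3 annotated pseudogenes.

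**Figure D3:**
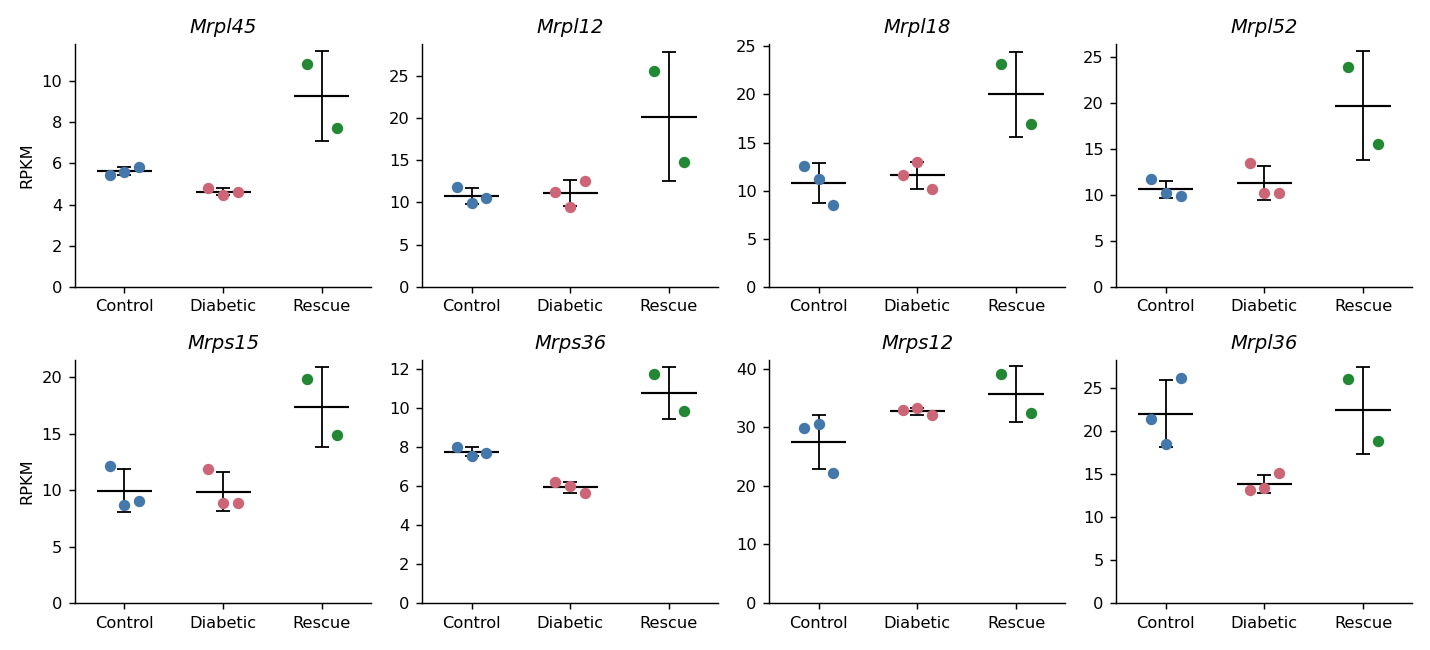
RPKM of 8 members by genotype, with 1 point per library, a horizontal line at the group mean and an error bar of 1 SD (n = 3, 3 and 2). *Mrpl45* and *Mrps36* separate all 3 groups, *Mrpl12*, *Mrpl18*, *Mrpl52* and *Mrps15* are higher in both Rescue libraries only, and *Mrps12* overlaps between Diabetic and Rescue.

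Larger differences that missed the threshold belonged to members with wider spread. *Mrpl24*, of the large subunit, was at 31.2, 27.97 and 18.8 RPKM in the Control libraries, 30.6, 14.5 and 16.8 in the Diabetic libraries and 50.3 and 29.6 in the Rescue libraries. Diabetic 1 lay above Rescue 2, and the difference of 0.94 (SE 0.35, adjusted p = 0.0752) by limma was the largest of the family. *Mrps6*, of the small subunit, was at 4.84, 3.57 and 4.47 RPKM in the Control libraries, 2.34, 1.68 and 4.51 in the Diabetic libraries and 6.51 and 4.85 in the Rescue libraries, and its difference was 0.85 (SE 0.29, adjusted p = 0.0583) by limma. *Mrps6* was the member called lower in Diabetic than Control when Diabetic 3, the highest of its Diabetic values, was left out. In that fit 375 of 12594 tested genes were called lower. At the other end, *Mrpl1* was at 8.16, 8.43 and 7.82 RPKM in the Control libraries, 13.8, 10.6 and 7.82 in the Diabetic libraries and 6.16 and 8.98 in the Rescue libraries. Its ranges overlapped and its difference was −0.44 (SE 0.23, adjusted p = 0.177) by limma, the lowest of the family.

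Rescue and Control islets differ at both loci. Of the 77 members 7 (9.09%) were called higher in Rescue and none lower, when 18.0% of all tested genes were called higher and 5.48% lower. The median difference of the members was 0.28 and that of all tested genes 0.08, and 72 members were above 0. Among the 2830 tested genes no longer than the median member, 22.7% were called higher, with a median of 0.21. All Rescue values lay above all Control values in 38 members and below in none, against 33.1% and 18.9% of all tested genes. The cytosolic family had 76 of 77 genes called higher, with a median of 1.06. Without Control 4 no member was called (limma), with 10 higher and 1 lower at an unadjusted p below 0.05. Of all tested genes, 14.6% were called higher without Control 4. Without Rescue 1 the members' median was 0.16 and that of all tested genes 0.12. Without Control 1 the count of called members was 3 (3.90%, against 15.1% of all tested genes called higher). It was 1 without Control 3 (1.30% against 14.3%) and 4 without Diabetic 2 (5.19% against 16.1%). The members' median was 0.40 without Rescue 2, and that of all tested genes 0.03. Under median-of-ratios scaling 3 members were called higher (3.90%, against 16.5% of all tested genes). Under quantile normalization 4 were called higher (5.19% against 14.3%) and 1 lower (*Mrps31*), when 2483 of 12594 tested genes were called lower.

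**Figure D4:**
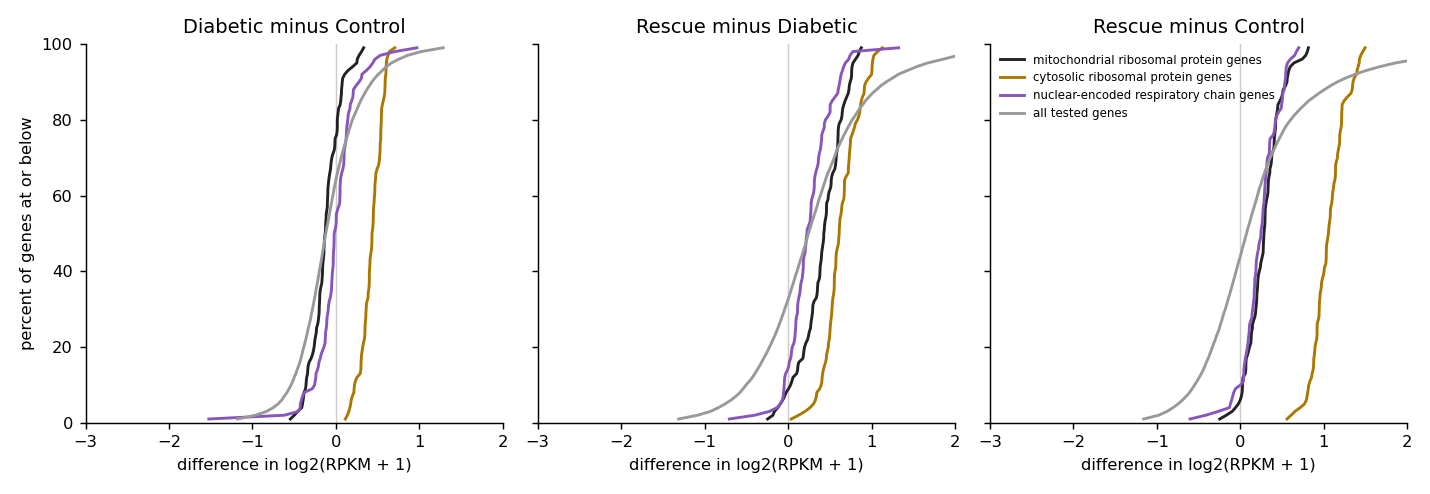
Cumulative percent of genes (vertical axis) at or below a difference in log2(RPKM + 1) (horizontal axis) for 4 gene families in the 3 comparisons. The mitochondrial family's median is −0.13, 0.43 and 0.28 from left to right, and the cytosolic family's is 0.43, 0.61 and 1.06.

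The comparisons with Diabetic and with Control share the Rescue libraries, so their values are given side by side. The largest difference from Control was that of *Mrpl18* (chr17:12911349-12916345, minus strand), a large subunit gene whose exons overlap those of *Tcp1*, a cytosolic chaperonin gene. It was at 12.6, 11.2 and 8.49 RPKM in the Control libraries, 11.6, 12.97 and 10.2 in the Diabetic libraries and 23.2 and 16.9 in the Rescue libraries. Both Rescue values exceeded the other 6, and the difference was 0.84 (SE 0.20, adjusted p = 0.0189) from Control and 0.73 (SE 0.20, adjusted p = 0.0296) from Diabetic by limma. *Mrpl52* (chr14:54426909-54429756, plus strand), whose promoter with an ETS match is shown above, was at 11.7, 10.2 and 9.88 RPKM in the Control libraries, 13.4, 10.2 and 10.2 in the Diabetic libraries and 23.9 and 15.5 in the Rescue libraries. It had the same separation, with 0.81 (SE 0.21, adjusted p = 0.0230) from Control and 0.73 (SE 0.21, adjusted p = 0.0300) from Diabetic by limma.

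*Mrps15* (chr4:126046925-126055532, plus strand), the counterpart of the bacterial S15 protein, was at 12.2, 8.70 and 9.002 RPKM in the Control libraries, 11.8, 8.89 and 8.84 in the Diabetic libraries and 19.9 and 14.9 in the Rescue libraries. The replicate 1 libraries of Control and Diabetic were the highest of their groups and still below both Rescue values, with 0.75 (SE 0.21, adjusted p = 0.0323) from Control and 0.76 (SE 0.21, adjusted p = 0.0270) from Diabetic by limma. *Mrps7* (chr11:115603925-115608036, plus strand), the counterpart of bacterial S7, was at 11.9, 10.8 and 11.2 RPKM in the Control libraries, 13.0, 10.99 and 11.96 in the Diabetic libraries and 18.9 and 15.5 in the Rescue libraries. Both Rescue values were highest, with 0.56 (SE 0.14, adjusted p = 0.0239) from Control and 0.48 (SE 0.14, adjusted p = 0.0365) from Diabetic by limma. Its exons overlap those of *Gga3* and *Mif4gd*.

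The 3 *Mrps18* paralogs differed in their calls. *Mrps18c* (chr5:100798627-100804471, plus strand), whose product is in the small subunit, was at 5.23, 4.81 and 3.65 RPKM in the Control libraries, 4.58, 3.97 and 4.20 in the Diabetic libraries and 7.98 and 6.51 in the Rescue libraries. It was called in both Rescue comparisons, with 0.65 (SE 0.18, adjusted p = 0.0263) from Diabetic and 0.57 (SE 0.18, adjusted p = 0.0468) from Control by limma. Of 21 alternatives, the call from Control was lost in 16, among them a pseudocount of 0.1 (adjusted p = 0.0505), and the call from Diabetic in 10. *Mrps18a*, whose product sits in the large subunit despite its symbol, was at 5.85, 6.24 and 6.28 RPKM in the Control libraries, 5.63, 4.96 and 5.43 in the Diabetic libraries and 7.19 and 7.26 in the Rescue libraries. Its groups did not overlap, with Diabetic lowest, but Rescue minus Diabetic, 0.38 (SE 0.13, adjusted p = 0.0635) by limma, was not called. *Mrps18b*, in the small subunit, was at 8.97, 7.01 and 5.58 RPKM in the Control libraries, 10.6, 7.12 and 8.39 in the Diabetic libraries and 7.36 and 7.53 in the Rescue libraries, with overlapping groups and a Rescue minus Diabetic difference of −0.18 (SE 0.21, adjusted p = 0.531) by limma. The differences between the paralogs were not tested.

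*Mrpl58*, known as ICT1, encodes a peptide release factor built into the large subunit. It was at 7.71, 6.91 and 6.62 RPKM in the Control libraries, 6.58, 7.53 and 6.88 in the Diabetic libraries and 11.01 and 8.60 in the Rescue libraries. Both Rescue values exceeded the others, and Rescue minus Diabetic, 0.43 (SE 0.15, adjusted p = 0.0673) by limma, was not called. Of the lowest 3 members, *Mrps25* was called higher in Rescue than Diabetic, with 0.46 (SE 0.14, adjusted p = 0.0400) by limma, at 1.90, 1.76 and 1.67 RPKM in the Control libraries, 1.52, 1.30 and 1.36 in the Diabetic libraries and 2.34 and 2.24 in the Rescue libraries. Its exons overlap those of *Nr2c2*. This *Mrps25* call was lost in 13 alternatives and kept in 7. Under quantile normalization its difference was 0.01 (adjusted p = 0.948, limma). *Mrps10* and *Mrpl33* were not called in any comparison.

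In all, 51 members were called in no comparison, 19 in 1 and 7 in 2. Large and small subunit genes kept close levels in every library, the small minus large difference being −0.02 to 0.03 in Control, −0.01 to 0.04 in Diabetic and −0.07 to 0.02 in Rescue on the centred log2 scale. Of the 77 members, 18 share exons with another tested gene and 3 have a named pseudogene, so that counting could have split or mixed their reads.

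Other genes of mitochondrial translation were read from fixed lists. Of 5 tested mitoribosome proteins under other symbols, 3 were called higher in Rescue than Diabetic and none lower, with a median of 0.59. The share of all tested genes called higher was 24.0%, and this list of 5 was not tested against it. The 3 called were *Gadd45gip1* (CRIF1, a protein at the exit tunnel), *Aurkaip1* and *Chchd1*. *Gadd45gip1* was at 11.6, 11.2 and 11.3 RPKM in the Control libraries, 6.82, 6.67 and 6.72 in the Diabetic libraries and 15.6 and 10.1 in the Rescue libraries. The 3 Diabetic values were below all others, with −0.68 (SE 0.16, adjusted p = 0.0548) from Control, which was not called, and 0.81 (SE 0.18, adjusted p = 0.0115) for Rescue minus Diabetic by limma. *Chchd1* was also called higher in Rescue than Control (0.49, adjusted p = 0.0435, limma).

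In Rescue minus Diabetic, 1 of 15 mitochondrial translation factors was called higher (*Qrsl1*, a subunit of the glutaminyl-tRNA amidotransferase), with a list median of 0.15. Among mitochondrial aminoacyl-tRNA synthetases, 3 of 18 were called higher (*Aars2*, *Lars2* and *Pars2*), with a median of 0.23. Of 28 assembly and ribosomal RNA modification factors, 3 were called higher, with a median of 0.27: the GTPases *Mtg2* and *Eral1* and the pseudouridine synthase *Rpusd4*. Of 14 genes listed for mitochondrial transcription and mRNA stability, 2 were called higher, with a median of 0.42. These were the helicase *Twnk*, whose exons overlap those of the called member *Mrpl43*, and the DNA polymerase *Polg*. None of these 4 lists had a gene called lower, and none had a call in Diabetic minus Control or Rescue minus Control. In all 4 the share called higher was below the 24.0% of all tested genes.

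Of 10 tested regulators of mitochondrial biogenesis, 3 were called higher in Rescue than Diabetic. *Nrf1*, the factor whose motif was searched above, was at 2.15, 1.88 and 1.89 RPKM in the Control libraries, 1.23, 1.28 and 1.52 in the Diabetic libraries and 2.56 and 2.71 in the Rescue libraries, and its difference was 0.63 (SE 0.15, adjusted p = 0.0136) by limma. *Esrra*, the estrogen-related receptor α, was at 6.60, 6.85 and 5.20 RPKM in the Control libraries, 4.71, 2.89 and 3.22 in the Diabetic libraries and 6.47 and 6.98 in the Rescue libraries, and its difference was 0.77 (SE 0.20, adjusted p = 0.0234) by limma. For both genes the Diabetic values were below all others. The NRF1 motif was in 1 of 22 matched members called higher in Rescue than Diabetic (4.55%) and 7 of 46 not called (15.2%). At least 1 of the motifs was in 54.5% and 54.3% in the same order. A link between *Nrf1* and the members was not tested. *Myc*, a regulator of ribosome production, was at 1.12, 6.0 and 1.89 RPKM in the Control libraries, 2.69, 1.88 and 0.832 in the Diabetic libraries and 9.18 and 17.1 in the Rescue libraries, highest in both Rescue libraries, with 2.34 (SE 0.51, adjusted p = 0.0115) from Diabetic and 1.96 (SE 0.51, adjusted p = 0.0251) from Control by limma.

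Of 20 tested import genes, 7 were called higher in Rescue than Diabetic, with a median of 0.28, among them *Tomm22* and *Tomm40* of the outer membrane translocase and *Timm9* and *Timm10* of the intermembrane space. This share and that of the regulators were somewhat above the background of 24.0%, in lists of 20 and 10 genes, and were not tested. Of 10 genes of the mitochondrial unfolded protein response, 2 were called higher, a share below the 24.0% of all tested genes. They were *Atf5*, a transcription factor of that response, and the chaperone *Trap1*. *Atf5* was at 80.8, 96.0 and 156 RPKM in the Control libraries, 29.3, 33.7 and 61.9 in the Diabetic libraries and 79.0 and 94.0 in the Rescue libraries. It was called lower in Diabetic than Control, −1.41 (SE 0.31, adjusted p = 0.0474), and higher in Rescue than Diabetic, 1.11 (SE 0.35, adjusted p = 0.0451), by limma, and its Diabetic values were below all others.

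Other signals moved with the same libraries. All 8 T and B lymphocyte markers were tested and 6 were called higher in Rescue than Diabetic. Their summed level was 5.37 to 24.3 RPKM in Control, 6.24 to 109 in Diabetic and 259 to 355 in Rescue, and none was at 0 in all libraries. All 8 cycling cell markers were called higher in Rescue than Diabetic and Control, with summed levels of 23.5 to 30.9, 28.2 to 34.2 and 84.1 to 141 RPKM in Control, Diabetic and Rescue. Fibroblast markers (6 of 6 tested) summed to 4.81 to 21.3 RPKM in Control, 19.2 to 29.9 in Diabetic and 96.9 to 110 in Rescue, and macrophage markers (7 of 7) to 55.4 to 104, 88.0 to 242 and 561 to 655 RPKM. The part of these cells in the members' difference was not tested.

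Nuclear-retained RNAs, 9 of 12 listed tested, were low in Control 4, Diabetic 2 and Diabetic 3 (centred levels of −1.57, −1.57 and −1.50) and 0.68 to 1.17 in the other libraries. These are also the 3 libraries that most often held a member's lowest value (35, 14 and 10 members in Diabetic 2, Diabetic 3 and Control 4). The median centred level of all tested genes was lowest in them too. It was −0.18, −0.19 and −0.06 in the same order and 0.04 to 0.17 in the other libraries. The cause was not tested. Without these 3 libraries Diabetic kept 1 library, so medians are given here. In Rescue minus Diabetic the members' median was then 0.35 and that of all tested genes 0.09. The medians were 0.23 and 0.02 in Rescue minus Control, and −0.08 and 0.0 in Diabetic minus Control, in the same order.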

How the data were processed

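Polyadenylated RNA of isolated islets was sequenced by the authors as paired-end reads, aligned with STAR to mm10, counted per gene with HTSeq and processed with edgeR. For tool versions, annotation release and strand setting, the sources used here give nothing. The deposited values are RPKM, 1 per gene and library, and no library was pooled in the table. RPKM is relative to the reads of a library, so a few very abundant genes can shift all others. The RPKM steps gave whole reads for 100.0% of the 18126 genes above 0 (within 0.001 reads), and these gave the depths and 1 alternative fit. For the 930 genes above 0 in only 1 library a solution was certain, so this share is not a check of the recovery.

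From the RPKM values, log2(RPKM + 1) of the 12594 genes that reached 1 RPKM in 2 or more libraries was fitted in limma 3.58.1 (R 4.3.3), with all 8 libraries, 1 mean per genotype and empirical Bayes with a trend on level. Tests were 2-sided, and a gene was called at a Benjamini-Hochberg adjusted p below 0.05 over all tested genes. SE is limma's standard error, and ± is the SD of RPKM values. The fit was tested on simulated data. Coordinates are from GENCODE M21 (GRCm38). Members named were the called members with the 5 largest differences in each comparison and direction, the 3 highest and 3 lowest levels, *Mrpl12*, *Mrps12*, *Mrpl58*, *Mrps36* and the *Mrps18* genes, and members called in 2 comparisons. *Mrpl1*, *Mrpl24*, *Mrpl36*, *Mrpl51* and *Mrps6* were added after their values were seen, as were members named for a promoter or an alternative. Members, lists and alternatives were chosen with earlier results of these data known. The closing section gives the effect of 20 alternatives and of 1 added later. Python 3.11.15 with matplotlib 3.10.9 drew the plots.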

Additional observations from a re-analysis of the deposited data

How the results depend on the processing

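The number of members called depended on the processing, whereas the sign of the members' median did not change under any alternative. For Rescue minus Diabetic, 26 members were called higher. The count was 4 higher and 1 lower with median-of-ratios scaling (median 0.21), 1 higher and 2 lower with quantile normalization (median 0.14), 2 with only the 2 groups compared (2.60%, against 15.8% of all tested genes called higher), 7 with the nuclear RNA covariate (9.09% against 17.5%), 0 without the 3 libraries low in nuclear RNA (chosen after seeing the data, against 7.46%) and 40 at an adjusted p of 0.1. For Rescue minus Control, 7 were called higher. The count was 3 with median-of-ratios scaling, 4 higher and 1 lower with quantile normalization (median 0.11), 2 with only the 2 groups compared and 16 at an adjusted p of 0.1. For Diabetic minus Control, 2 were called lower at an adjusted p of 0.1, when 771 of 12594 tested genes were. The members' median in that comparison was −0.01 with either other scaling. A voom fit on the recovered reads called 24 members higher for Rescue minus Diabetic (31.2%, against 25.5% of all tested genes). For Rescue minus Control it called 7 (9.09% against 18.2%). At an adjusted p of 0.1 the shares called higher were 51.9% against 31.7% and 20.8% against 21.9% in the same order. With only the 2 groups compared, Rescue minus Control had 2.60% against 17.2%. Without the 3 libraries low in nuclear RNA, the members' median for Rescue minus Control was 0.23 and that of all tested genes 0.02. The cause of the changes in count was not tested.

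Leaving out each library in turn gave 2 to 32 members called higher for Rescue minus Diabetic and none lower, with medians of 0.33 to 0.53, when 11.4% to 29.3% of all tested genes were called higher. The members' share was above that of all tested genes only without Diabetic 1 (32.5% against 29.3%) and without Rescue 2 (41.6% against 20.6%). It gave 0 to 21 higher and 0 to 1 lower for Rescue minus Control, with medians of 0.16 to 0.40, and 0 to 1 lower for Diabetic minus Control, with medians of −0.18 to −0.08. Where Rescue kept 1 library, that library was assumed to vary like the other groups. With the replicate number as a block, 8 members were called higher for Rescue minus Diabetic (10.4% against 16.4%) and 0 for Rescue minus Control (against 9.52%). Deviations of same-numbered libraries correlated at 0.327 for Control 1 with Diabetic 1, 0.372 for Control 1 with Rescue 1, −0.263 for Control 3 with Diabetic 3, 0.082 for Diabetic 1 with Rescue 1 and 0.07 for Diabetic 2 with Rescue 2. The labels tie no number to a litter, and not every pair correlated, so the numbers were not used as pairs. Whether some same-numbered libraries share a litter or a batch is not known. The cytosolic median stayed above 0 in all 3 comparisons under every alternative (0.25 to 0.58 for Diabetic against Control, 0.37 to 0.85 for Rescue against Diabetic and 0.82 to 1.30 for Rescue against Control). Named members changed their side of the threshold in 165 of 1188 refits, 149 by losing and 16 by gaining the call, and no called one changed sign. The Rescue minus Diabetic call was lost in 1 alternative for *Mrps36*, 2 for *Mrpl45*, 6 for *Mrpl28* and 8 for *Mrps16*. It was lost in 8 for *Mrps15*, 9 for *Mrpl52*, 10 for *Mrpl12*, 10 for *Mrpl18* and 12 for *Mrps7*. For Rescue minus Control, the call was lost in 11 for *Mrpl12*, 9 for *Mrpl45*, 8 for *Mrps7*, 7 for *Mrps15*, 5 for *Mrpl52* and 4 for *Mrpl18*. With 2 Rescue libraries, a lost call does not show that a member did not differ.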
